A study of Mus musculus with 2 samples.

Results

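Amino acid transporter genes of the solute carrier families Slc1, Slc3, Slc7, Slc36, Slc38 and Slc43 were compared between cells sorted for Flk1 and Tie2. The cells came from cultures with and without a pulse of Mesp1, a transcription factor of early mesoderm. The genes were taken by name alone, as every probe set whose platform symbol is one of these 6 prefixes followed by "a" and a number, and no measured value entered the choice. They came to 40 genes with 86 probe sets, of 18193 named genes and 45037 probe sets on the arrays. Slc38a8 and Slc38a11 have the same form of name but no named probe set, and 1 further probe set shared by Slc1a2 and Gm13872 was left out. Both samples were A2lox.Mesp1 mouse embryonic stem cells of 129/Ola background, in which doxycycline (dox) turns on a Mesp1 transgene, differentiated for 5 days as embryoid bodies (floating aggregates) seeded at 15000 cells/mL in 10% FCS (fetal calf serum). The no dox sample was left untreated. The dox sample received 250 ng/mL of dox on day 2, and its description gives the exposure as lasting until day 4. In each case the day 5 cells with both Flk1 and Tie2 on their surface were sorted, and 100 ng of RNA was labelled for 1 Affymetrix array. Both samples carry the transgene, and no dox-treated cells without it were analysed here, so an effect of dox and an effect of Mesp1 cannot be told apart. With 1 array per condition every difference is between these 2 samples, with no replicate error, test or p-value.

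Cells import amino acids through carriers that differ in substrate and driving force. Slc1 proteins move glutamate or small neutral amino acids with sodium, and Slc38 proteins move glutamine, alanine and other small neutral amino acids with sodium. Slc36 proteins include proton-coupled carriers of small amino acids and are found on lysosomes as well as the cell surface. Slc43 proteins include facilitators for large neutral amino acids. Most Slc7 proteins are light chains that reach the membrane only when bound to a heavy chain, Slc3a2 or Slc3a1, while the cationic amino acid carriers of the same family work alone. Endothelial and stem cells take up glutamine, leucine and arginine through such carriers to build protein and nucleotides, and leucine and arginine also switch on the growth kinase complex mTORC1 at the lysosome.

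The promoters of the genes on which the results turn are shown because Mesp1 is a basic helix-loop-helix protein, a class that binds E-boxes. They are the 250 bases before the annotated start of Slc1a2 (GRCm38.p6, chr2:102706188-102706437, plus strand), Slc1a3 (chr15:8710808-8711057, minus strand) and the more upstream of the 2 starts listed for Slc7a6 (chr8:106168604-106168853, plus strand), from RefSeq, in the direction of transcription. Capitals mark E-boxes (CANNTG, which reads the same on both strands).
Slc1a2: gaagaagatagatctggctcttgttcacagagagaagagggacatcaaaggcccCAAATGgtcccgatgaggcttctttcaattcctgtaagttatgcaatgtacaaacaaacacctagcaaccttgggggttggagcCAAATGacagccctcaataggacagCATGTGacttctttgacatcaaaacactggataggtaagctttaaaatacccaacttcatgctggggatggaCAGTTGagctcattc
Slc1a3: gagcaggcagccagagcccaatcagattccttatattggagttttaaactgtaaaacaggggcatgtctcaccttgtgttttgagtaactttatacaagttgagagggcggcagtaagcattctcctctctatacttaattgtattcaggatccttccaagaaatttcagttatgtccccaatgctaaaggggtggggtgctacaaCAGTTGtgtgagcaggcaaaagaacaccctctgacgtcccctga
Slc7a6: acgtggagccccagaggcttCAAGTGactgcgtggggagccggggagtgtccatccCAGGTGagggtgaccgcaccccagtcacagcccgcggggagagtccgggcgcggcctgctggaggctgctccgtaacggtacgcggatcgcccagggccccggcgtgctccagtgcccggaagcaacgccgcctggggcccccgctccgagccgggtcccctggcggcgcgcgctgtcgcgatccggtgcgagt
The Slc1a2 window held 4 E-boxes, the Slc1a3 window 1 and the Slc7a6 window 2. The window of the other listed start of Slc7a6, which is not shown, held 0. E-boxes are common letters: 66.2% of 32851 mouse promoter windows of this length held at least 1, as did 26 of the 40 windows (65%) listed for 29 of the transporter genes. The amino acid response element, the site of ATF4 at genes switched on by amino acid shortage, was searched as TGATGNAA on both strands. It was in 3 of the 40 transporter windows, which belong to Slc7a7 and Slc7a11, and in 3.45% of all windows. A match is a run of letters and not a measured binding site.

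Array signals, which have no physical unit, were compared as log2(signal + 16), dox minus no dox, with each gene represented by its brightest probe set. A gene was counted where at least 1 of its signals was at or above the array median (112 without dox, 127 with dox), and a difference of 2-fold, or 1 on the log2 scale, was the fixed size for a count. On these arrays the Mesp1 signal was 2433 without dox and 10977 with it. All 8 endothelial markers passed the filter. Kdr (Flk1) and Tek (Tie2) each differed by 0.08, while 6 of the 8 were lower with dox by any amount and 1, the tight junction gene Cldn5, by 2-fold or more (3582 and 1350, -1.40). As for markers of other cells, in the dox sample at least 2-fold more signal was found for 7 of 8 markers of smooth muscle and mesenchyme (summed signal 4662 and 35156, with Cnn1 at the table's floor of 1 without dox). The 6 largest of these differences were those of Tagln, Lum, Col3a1, Cnn1, Pdgfra and Acta2, from 5.14 to 2.29. The same held for 5 of 8 cardiomyocyte markers (1922 and 6791, with Myh6 below the filter), namely Myl4, Tnnt2, Myh7, Myl7 and Actc1, from 3.87 to 1.38. Of the genes named here, Tagln, Lum, Cnn1, Myl4, Myh7 and Myl7 passed the filter through the dox array alone, where they were high. With a filter on both arrays the counts were 3 for smooth muscle and mesenchyme and 2 for cardiomyocytes. Among all genes past the main filter, 5.69% were higher with dox by at least 2-fold. Of 7 measured red cell genes 2, Hbb-bh1 (-2.58) and Hba-x (-1.004), had less signal with dox by at least that size (6781 and 2947), with Alas2 and Slc4a1 below the filter, whereas the 5 macrophage genes summed to 387 and 384 and all but Csf1r (0.26) were below it, namely Ptprc, Cd68, Lyz2 and Cx3cr1. The pluripotent cell genes summed to 3767 and 2454, mostly Utf1 (3346 and 1917, -0.80), with Dppa5a at 0.24 and Pou5f1, Nanog, Sox2 and Zfp42 below the filter. The endoderm genes summed to 10221 and 10742, of which Sox17, a gene that endothelium also expresses, gave 9431 and 10010 (0.09). Apoa1 (-0.18) and Cldn6 (-0.15) differed little, and Afp and Foxa2 were below the filter. The part of such cells in the transporter values was not tested, and in a sorted population fewer cells of a type and less RNA per cell cannot be told apart.

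Most transporter genes differed little between the samples. Of the 23 that passed the signal filter, Slc1a3 was 2-fold or more higher with dox, Slc1a2 was lower by at least as much, and the other 21 were inside those bounds. Among all 11794 genes past the filter, 5.69% were 2-fold or more higher and 2.06% lower, so 1 gene in each direction is close to the background share. The median log2 difference was 0.08 for the transporters and 0.05 for all genes, and the median absolute difference was 0.24 for the transporters and 0.25 for all genes. By any amount 15 of the 23 were higher and 8 lower, but after quantile normalization the split was 11 and 12, and with both arrays scaled to the same median it was 9 and 14. Scaling to the same median moved the median of all genes by -0.18, and the transporter median then stood 0.04 above it, as it did with the deposited scaling. It also changed the share of higher genes among all genes past 2-fold from 73.4% to 56.8%. A bulk of 16 transporter genes (69.6%, against 61.4% of all genes) lay between -0.5 and 0.25, and the next highest value after 0.24 was 0.65. These bounds were not planned, and the upper one falls in that gap of the same values, so the 2 shares are description only. At a fold of 1.5, chosen after the values were seen, 6 transporters were higher and 1 was lower, where 11.8% and 7.06% of all genes were. The 6 were Slc1a3, Slc7a6, Slc38a6, Slc38a4, Slc36a4 and Slc7a7. They stayed positive under both other scalings, but genes picked for their size would be likely to. With both arrays scaled to the same median, Slc1a3 (1.29) and Slc7a6 (0.74) kept the 1.5-fold size. Slc38a6 (0.58), Slc38a4 (0.57), Slc36a4 (0.54) and Slc7a7 (0.47) then fell below it, and after quantile normalization Slc7a7 (0.53) did.

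**Figure D1:**
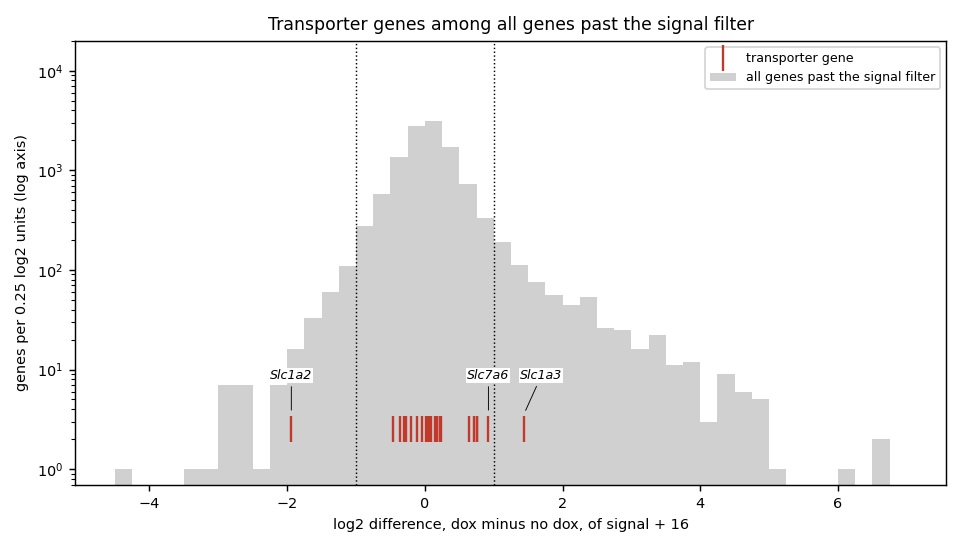
Histogram of the log2 difference (dox minus no dox, x axis) of the 11794 genes past the signal filter, as genes per bin of 0.25 log2 units on a log axis, with 1 red tick for each of the 23 transporter genes and dotted lines at 2-fold. Slc1a2 at -1.94 and Slc1a3 at 1.44 are the 2 ticks outside the dotted lines, and Slc7a6 at 0.92 lies just inside.

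The glutamate carriers of the Slc1 family held both differences past 2-fold, in opposite directions. Slc1a2, the glutamate transporter known from astrocytes as GLT-1, gave 866 in the no dox sample and 214 in the dox sample, 3.84-fold lower (log2 difference -1.94). Only 0.246% of genes past the filter had a difference as low. That value rests on 1 of its 5 probe sets: the other 4 were below the filter, with signals from 5.79 to 36.1 without dox and from 6.19 to 48.2 with dox, and the median over the 5 was 0.03. Slc1a3, the related glutamate and aspartate transporter GLAST, had 47.6 without dox and 157 with dox, 2.72-fold higher (1.44). It was above the median on the dox array only, so it passed the filter through the sample in which it was high, and 3.36% of genes had a difference as high. All 6 of its probe sets were higher with dox, from 0.14 to 0.86 for the 5 below the filter. Their median with the brightest was 0.75, and with a pseudocount of 64 the brightest gave 0.98, so the 2-fold size depends on the probe set and the pseudocount. The smooth muscle and mesenchyme markers were also higher in the dox sample, and their part in the Slc1a3 value was not tested.

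The neutral amino acid exchangers of this family were lower with dox by less than 2-fold. Slc1a4 (ASCT1), which carries serine, alanine and cysteine, had 275 and 196 (-0.46), and its other probe sets gave -0.34 and -0.26. Slc1a5 (ASCT2), a main route for glutamine in many growing cells, was below the median on both arrays at 82.9 and 36.7 (-0.91, and -1.05 with the arrays scaled to the same median). Its other probe set was dimmer still, at 35.5 and 29.5. The remaining glutamate carriers were dim in both samples: Slc1a1 had 52.1 and 44.4, Slc1a6 had 50.9 and 69.8, and Slc1a7 had 56.0 and 57.9. No detection calls came with the table, so a signal below the median is called dim and not absent.

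Among the Slc7 light chains, Slc7a6, Slc7a7 and Slc7a10 passed the filter, and the first 2 were higher with dox by more than 1.5-fold. Slc7a6 (y+LAT2), which exports arginine in exchange for glutamine or leucine, had 2186 without dox and 4159 with dox, 1.90-fold higher (0.92), and its other probe set, at 1961 and 3626, gave 0.88. Both probe sets were therefore higher with dox and close to each other, just under the 2-fold size, and 6.37% of genes had a difference as high as the brightest. Slc7a7 (y+LAT1), the close relative of Slc7a6, had 329 and 525 (0.65), with a dim probe set at 47.5 and 52.2 (0.10). Their shared heavy chain Slc3a2 (CD98) had 2228 and 2524 on its only probe set, a difference of 0.18 that was -0.0027 with the arrays scaled to the same median. The samples thus differed more in both of these light chains than in the heavy chain, by 1 array each. Slc7a10 (Asc-1), a carrier of small neutral amino acids, had 184 and 187 (0.02, and -0.15 with the arrays scaled to the same median).

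Other partners of Slc3a2 were dim. Slc7a5 (LAT1), the leucine transporter of many dividing cells, had 20.6 and 8.53 on its only probe set, and Slc7a8 (LAT2) had 38.4 and 28.6. Slc7a11 (xCT), the cystine and glutamate exchanger, had 17.04 and 8.51, with 8.79 and 10.15 on its other probe set. With so few probe sets a dim probe and a gene with little RNA cannot be told apart. The second heavy chain, Slc3a1, and its partner Slc7a9, which together take up cystine and cationic amino acids in kidney and gut, were dim as well, with 62.2 and 83.7 for Slc3a1 and 24.4 and 34.6 for Slc7a9.

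The cationic amino acid carriers did not give 1 direction. Slc7a1 (CAT1), the general arginine and lysine transporter, had 4637 and 4011 by its brightest probe set (-0.21) but 2108 and 3890 by the next (0.88). These probe sets, both far above the median, were 1.84-fold higher and 1.16-fold lower with dox, so no direction is given for Slc7a1. Slc7a2 (CAT2) was dim, at 39.2 and 72.0 (0.67), and its 4 probe sets ranged from -0.53 to 0.69. Slc7a3 (CAT3) came nearest to the filter without passing it, at 93.5 and 126 (0.37). Slc7a4 passed through the no dox array only, at 141 and 113 (-0.28), and Slc7a14 was dim at 40.3 and 45.6. The rest of the family lay far below the median: Slc7a12 had 12.8 and 38.5, Slc7a13 9.07 and 7.88, and Slc7a15 1 (the floor) and 7.55.

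**Figure D2:**
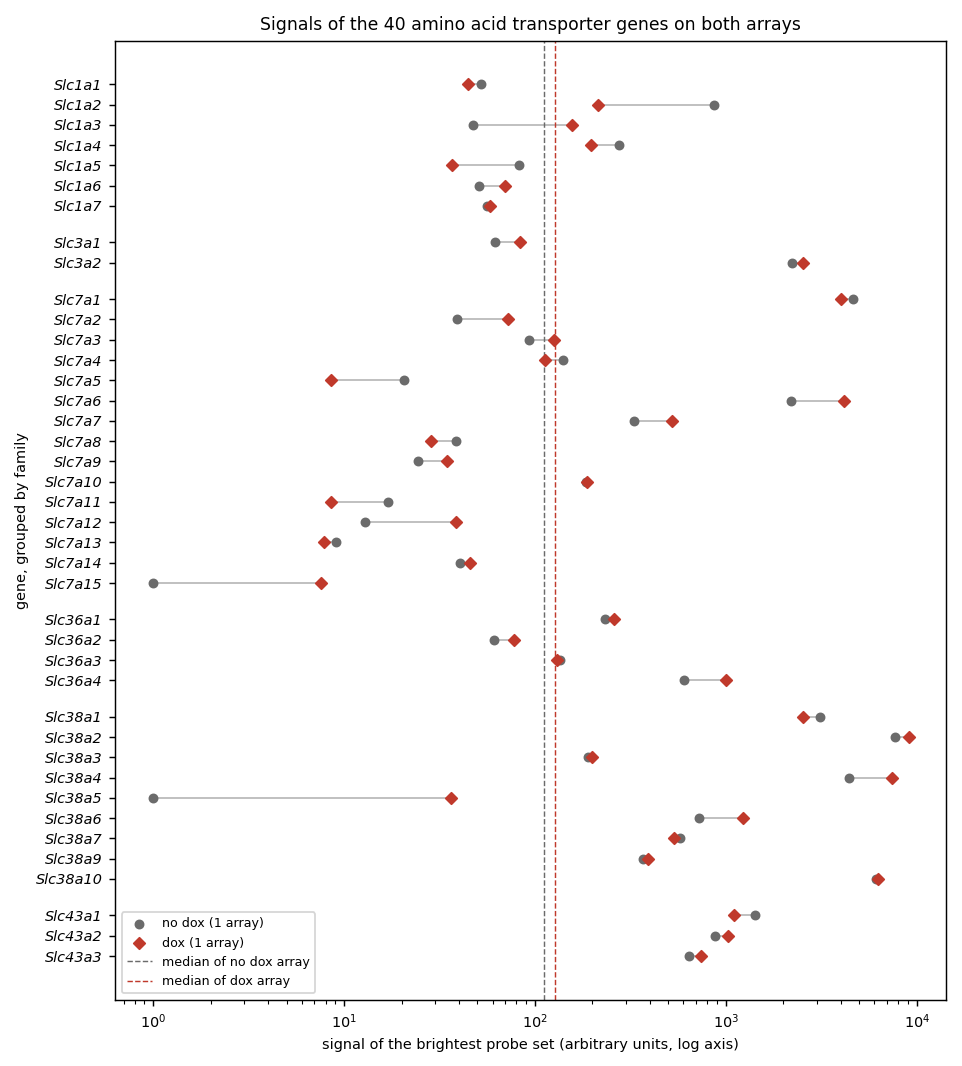
Signal of the brightest probe set of each of the 40 transporter genes (x axis, arbitrary units on a log scale) without dox (grey circle, 1 array) and with dox (red diamond, 1 array), grouped by family, with dashed lines at each array's median. The Slc38 and Slc43 genes lie mostly to the right of the medians, 10 of the 15 Slc7 genes did not pass the filter, and Slc1a2, Slc1a3, Slc7a6, Slc38a4, Slc38a6 and Slc36a4 show wide gaps among the genes that passed. Positions of different genes are not comparable, since each probe set has its own brightness.

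In the Slc38 family 8 of 9 measured genes passed the filter, and none differed by 2-fold. Slc38a4 (SNAT4), a sodium-coupled carrier of neutral amino acids that is imprinted in mouse, had 4417 and 7442, 1.68-fold higher with dox (0.75). Its other probe set had 4476 and 7069 (0.66), so both were higher by a similar amount. Slc38a6 had 722 and 1232, 1.69-fold higher (0.76), with a dim probe set at 23.97 and 37.96 (0.43). For Slc38a4 8.52% and for Slc38a6 8.41% of all genes past the filter had a difference as high.

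The system A carriers that supply most cells with glutamine and alanine differed less. Slc38a1 (SNAT1) had 3109 and 2526 (-0.30) and, by its other probe set, 1780 and 1588 (-0.16), lower with dox on both. Slc38a2 (SNAT2), which cells raise when amino acids are short, had 7692 and 9076 (0.24), but its dimmer probe sets gave -0.20 (1211 and 1054) and 0.80 (99.04 and 184). Its probe sets therefore went both ways. Slc38a3 (SNAT3), a glutamine carrier of liver and brain, had 191 and 199 (0.06). Slc38a5 (SNAT5) was the only gene of the family below the filter, at the floor of 1 without dox and 36.2 with dox.

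The remaining members of the family, among them the lysosomal Slc38a7 and Slc38a9, were nearly level by their brightest probe sets. Slc38a7 (SNAT7), which lets glutamine out of lysosomes, had 579 and 535 (-0.11). Slc38a9, the lysosomal arginine sensor that signals to mTORC1, had 370 and 393 (0.08), and its 7 probe sets lay between -0.15 and 0.12. Slc38a10, whose substrates are less well known, had 6123 and 6264 (0.03), but its other 6 probe sets ran from -0.53 to 0.10. The signs of Slc38a3, Slc38a9 and Slc38a10 changed when the arrays were scaled to the same median (-0.11, -0.09 and -0.15). Slc38a3 and Slc38a9 are therefore given as level within what the scaling leaves uncertain. No direction is given for Slc38a10, whose probe sets spread more widely.

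The Slc36 and Slc43 carriers were within 2-fold as well. Slc36a4 (PAT4), a carrier of neutral amino acids, had 606 and 1008, 1.65-fold higher with dox (0.72) on its only probe set. Slc36a1 (PAT1), which exports amino acids from lysosomes, had 232 and 259, a difference of 0.15 that was -0.02 with the arrays scaled to the same median. Slc36a3 had 135 and 130 (-0.05) and Slc36a2 was dim at 61.3 and 78.1. Of the facilitators, Slc43a1 (LAT3), which carries leucine and other large neutral amino acids, had 1429 and 1110, 1.28-fold lower (-0.36). Slc43a2 (LAT4), of similar function, had 875 and 1022 (0.22), and all 3 of its probe sets were positive, from 0.03 to 0.22. Slc43a3, a family member linked to nucleobase uptake, had 639 and 745 (0.22).

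Disagreement between probe sets of a gene was the only error that the arrays offered. Pooled over 31 probe sets of 10 transporter genes, its SD was 0.27 log2 units, against 0.38 when 13823 probe sets of 5173 genes were pooled. It covers probe effects and noise and not the variation between cultures. Of these 10 transporters, 6 (Slc1a4, Slc7a6, Slc38a1, Slc38a3, Slc38a4 and Slc43a2) had all probe sets past the filter on 1 side of 0. The other 4 (Slc7a1, Slc38a2, Slc38a9 and Slc38a10) had them on both sides. A further 13 transporters past the filter had 1 probe set past it, so Slc1a2, Slc1a3, Slc7a7, Slc38a6 and Slc36a4, 5 of the 7 genes beyond 1.5-fold, have no second bright probe set to compare.

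**Figure D3:**
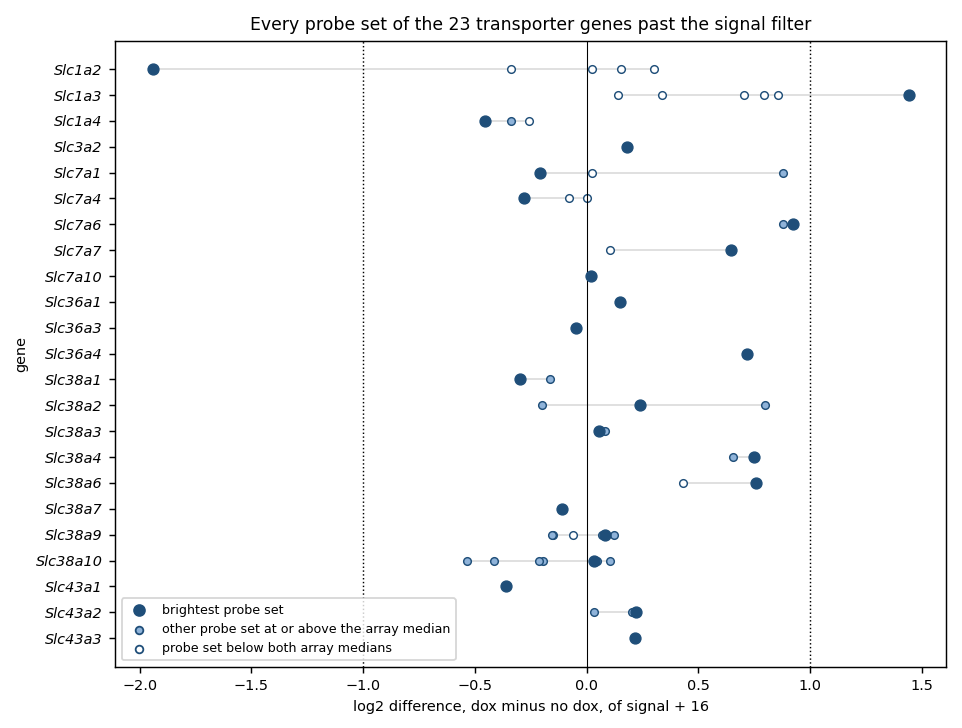
Log2 difference (dox minus no dox, x axis) of every probe set of the 23 transporter genes past the signal filter, with the brightest as a large dark point, others at or above an array median in light blue and those below both medians as open circles. The probe sets of Slc7a6 (0.88 and 0.92) and Slc38a4 (0.66 and 0.75) lie close together, while those of Slc7a1 (-0.21 and 0.88) and Slc1a2 (-1.94 against 4 open circles near 0) lie apart.

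Some of these genes are neighbours in the mouse genome, which the choice by name did not use. On chromosome 15 Slc38a1, Slc38a2 and Slc38a4 lie side by side with no other protein-coding gene between them in the RefSeq table of GRCm38.p6, and their differences were -0.30, 0.24 and 0.75. On chromosome 11 Slc36a3, Slc36a2 and Slc36a1 are likewise adjacent, with differences of -0.05, 0.28 and 0.15. On chromosome 2 Slc43a3 (0.22) and Slc43a1 (-0.36) have 1 gene between them. By the brightest probe sets the values thus lay on both sides of 0 in each cluster, all within 2-fold. Several of these signs are uncertain. Slc36a2 was below the filter, Slc36a1 was -0.02 with the arrays scaled to the same median, and the probe sets of Slc38a2 went both ways.

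Genes that use, sense or respond to amino acids were taken from 10 further lists and showed a different picture by pathway. The counts past 2-fold stand beside shares of 5.69% higher and 2.06% lower among all genes past the filter. Of 25 measured genes of the ATF4 and amino acid response past the filter, 1 was 2-fold or more higher (Cebpb, 69.3 and 309, although its other probe set gave -0.20) and 2 were lower. The lower ones were Psat1, an enzyme of serine synthesis (5490 and 2681, -1.03, and -1.84 by its other probe set), and Chac1, which degrades glutathione (194 and 79.7, -1.13, or -0.84 with a pseudocount of 64). Chac1 passed the filter through the no dox array alone. With the median over a gene's probe sets 5 genes of the list were lower and 0 higher. The list median was 0.04, and Atf4 itself had 2545 and 2238. Beside it stand Slc38a2 (0.24, with probe sets from -0.20 to 0.80) and Slc3a2 (0.18), carriers known to be raised by the same response. With the arrays scaled to the same median Slc3a2 was -0.0027. These are not all such carriers among the transporters. Slc1a4 (-0.46) was lower, as were Slc1a5 (-0.91), Slc7a5 (-0.58) and Slc7a11 (-0.43), which were below the filter. Of 28 genes of amino acid sensing and mTORC1, 1 was 2-fold or more higher, the stress-induced inhibitor Sesn3 (702 and 1465, 1.04, and 1.09 by its other probe set, but 0.86 with the arrays scaled to the same median), and the list median was 0.09.

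Of all genes past the filter, 44.4% were lower with dox by any amount. In the list of serine, glycine and one-carbon enzymes all 9 that passed were lower, with a median of -0.75. Past 2-fold were Gldc of the glycine cleavage system (1029 and 34.6, -4.37), Shmt2, the mitochondrial serine hydroxymethyltransferase (2111 and 983, -1.09), and the serine racemase Srr (1847 and 744, -1.29). Another probe set of Shmt2 gave -0.29, and 2 dimmer probe sets of Srr gave 0.30 and 0.40, so with the median over probe sets Gldc alone was past 2-fold. Some enzymes of the same metabolism stood in the ATF4 list instead. Of these Phgdh (-0.76), Psat1 (-1.03) and Mthfd2 (-0.74) were lower, but Psph was higher (1055 and 1231, 0.22). Cytosolic aminoacyl-tRNA synthetases, which load amino acids onto tRNA, were lower in 18 of 19 genes with a median of -0.23, and none reached 2-fold, although Vars did with the arrays scaled to the same median (-1.16). The largest of these differences were Vars (2886 and 1458, -0.98), Cars (5672 and 3615, -0.65) and Farsa (2869 and 1832, -0.64).

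Past 2-fold, 3 of 14 cystine and glutathione genes were lower and 1 was higher, where 2.06% and 5.69% of all genes were. Gclm, the modifier subunit of the rate-limiting enzyme of glutathione synthesis, had 1500 and 535 (-1.46 on both of its probe sets). Glutathione reductase Gsr had 691 and 268 (-1.32, and -1.33 by its other probe set), and Ggct had 374 and 137 (-1.35). The other probe sets of Ggct were dim and gave -0.07 and 0.61, so its median over probe sets was -0.07. Glutathione synthetase Gss had 259 and 1190 (2.13) but -0.14 by its other probe set. Slc7a11, the cystine carrier that feeds this pathway, was dim in both samples as given above.

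The remaining lists held few differences past 2-fold. Among 10 other amino acid transporters past the filter the vesicular carrier Slc32a1 was lower (223 and 72.2, -1.44), on 1 of 4 probe sets and above the median without dox only. Among 10 mitochondrial carriers the serine carrier family member Sfxn3 was higher (85.9 and 373, 1.93), and among 10 arginine and polyamine genes the arginase Arg1 was higher (31.6 and 137, 1.68). Both of these, like Cebpb above, passed the filter through the dox array alone. By the brightest probe set none of 14 glutamine, glutamate, proline and aspartate enzymes differed by 2-fold. The largest of these differences were Cad (2670 and 1630, -0.71), Asl (-0.59) and Got1 (-0.38). Asrgl1 had 572 and 570 by that probe set but 767 and 86.1 (-2.94) by another. Without probe sets whose suffix marks shared probes, 1 gene of the list was lower by 2-fold or more. None of 12 branched-chain amino acid enzymes differed by 2-fold, and the largest differences were Bcat2 (912 and 598, -0.60), Bckdhb (-0.53) and Ivd (-0.44).

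**Figure D4:**
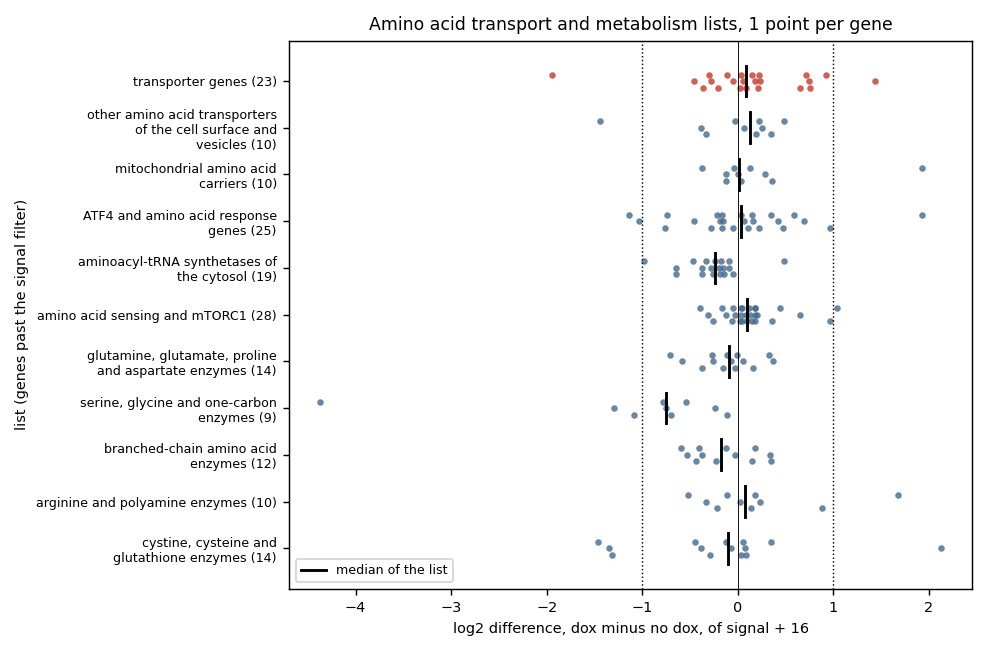
Log2 difference (dox minus no dox, x axis) of each gene past the signal filter in the transporter families (red) and in 10 lists of amino acid transport, sensing and metabolism (blue), with the median of each as a black bar, the number of genes in brackets and dotted lines at 2-fold. The serine, glycine and one-carbon enzymes have all 9 points below 0 and a median of -0.75, and the transporter points lie around a median of 0.08.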

How the data were processed

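RNA of 1 no dox and 1 dox sample was hybridised to Affymetrix 3' arrays, per the labels. The authors deposited a linear intensity for each probe set on each array. Their summary and scaling steps are not stated in the labels used here. The lowest intensity in each deposited column is 1, at 1165 probe sets without dox and 1102 with dox. The number of arrays limits the precision.

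Probe sets were named through the platform annotation: of 45037, 34945 had 1 symbol, 932 several and 9160 none. Entrez numbers of 34741 were found in RefSeq's GRCm38.p6 table, which changed 0 symbols. Log2 differences used a pseudocount of 16, which understates changes of dim genes. A gene's brightest probe set represented it, and it passed when a signal reached its array's median. The fold threshold was 2. The procedure was tested on simulated data with large changes planted in bright genes, all probe sets of a gene moving together. That test did not cover changes in dim genes, changes near the fold threshold or probe sets that disagree. Alternatives changed the pseudocount, the filter, the probe set and the scaling.

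All transporter genes may be named. Of each other list, genes past 2-fold are named (up to 6), or the 3 with the largest difference. Mesp1, Kdr and Tek are named as checks of the treatment and the sort. Atf4, Phgdh, Mthfd2, Psph and Asrgl1 fall outside this rule and were named after their values were seen. Markers below the filter are also named outside it. The genes and lists were chosen with earlier results of these data known. Python 3.11.15, pandas 2.3.3 and numpy 2.4.6 were used.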

Additional observations from a re-analysis of the deposited data

How the results depend on the processing

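Of the 23 transporters past the filter, the count 2-fold or more higher was 1 (Slc1a3) and became 0 with a pseudocount of 64, a filter at the 75th percentile, a filter on both arrays or the median over probe sets, 2 without a filter (adding the dim Slc38a5) and 6 at a fold of 1.5. The count lower was 1 (Slc1a2) under every alternative but the median over probe sets, where it was 0 and Slc1a2 was 0.026, since its dim probe sets then count. The transporter median ran from -0.09 with both arrays scaled to the same median to 0.22 with the filter at the 75th percentile, and without the extreme genes it was 0.08. Among all genes the counts higher and lower were 671 and 243. They were 350 and 135 with the filter at the 75th percentile and 1393 and 833 at a fold of 1.5. The count higher was 417 with a filter on both arrays, and the count lower was 372 without a filter and 402 with the arrays scaled to the same median. The fold of 1.5 and the omission of the extreme genes were chosen after seeing the data. The bounds of -0.5 and 0.25 used for the bulk of the transporters were not planned either. Of 238 recomputed values of transporter genes, 227 moved by less than the probe set SD of 0.38, 10 moved by more and 1 was Slc1a2, whose 2-fold value changed sign. Counting smaller values too, 15 of 136 values changed sign in 8 transporters past the filter: Slc1a2, Slc3a2, Slc7a1, Slc7a10, Slc36a1, Slc38a3, Slc38a9 and Slc38a10. In the other lists Slc32a1 was 0.024 by the median over probe sets, and without probe sets whose suffix marks shared probes Gss was -0.14 and Srr 0.30. No paired analysis was possible because each condition has 1 array, and for the same reason no sample could be left out.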
